A study of Mus musculus with 4 samples.

Results

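The 7 mammalian sirtuin genes (Sirt1 to Sirt7) and 3 genes that act around them, Nampt, Nmnat2 and Ppargc1a, were examined in the mouse hippocampus after repeated social defeat stress (R-SDS). The 10 genes were chosen by name out of 19938 genes with a single symbol on the array. Together they had 11 rows of probe sets, and each gene was represented by its row with the highest mean over the arrays, which left a choice only for Ppargc1a. Hippocampal RNA of 4 male C57BL/6JJmsSlc mice aged 11 to 12 weeks was hybridised to Affymetrix whole-transcript arrays, 1 array per mouse. The 2 Control mice lived in pairs in divided cages without any defeat. The 2 R-SDS mice met an aggressive male of the ICR strain for 10 min on each of 10 days and stayed behind a divider beside it for the rest of each day. The study's methods take susceptible mice to be those that avoid an unfamiliar ICR mouse, and its array mice are described as susceptible, whereas the sample labels give the stress alone. Nothing in the labels says that the mice of a group came from separate litters or cages, so the p-values reflect only how far these 4 samples spread, which may be technical.

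Sirtuins are enzymes that remove acetyl or other acyl groups from proteins and consume NAD+ in each reaction, which ties their activity to the energy state of the cell. NAD+ is rebuilt mainly from nicotinamide, first by NAMPT, the rate-limiting enzyme of this salvage route, and then by an NMNAT enzyme, of which NMNAT2 is the form of axons. PGC-1alpha, the product of Ppargc1a, is a coactivator of mitochondrial genes and a substrate of SIRT1. The study names hippocampal SIRT1 among the proteins known to respond to chronic stress, and the comparison asked whether the transcripts of this group differed between R-SDS and Control mice.

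None of the 10 genes passed the test between R-SDS and Control mice. For 9 of them the group difference was smaller than the larger gap between mice of a group, as for 88.9% of all transcripts. The exception was a step of -0.042 in Sirt2. The group means of 8 genes lay within 0.05 of each other on the log2 scale, and the other two were Nmnat2, which was 0.15 above the control mean (SE 0.21), and Sirt7, which was 0.10 above it (SE 0.19). By limma, 0 of the 10 genes passed an adjusted p of 0.05, against a background of 0.0% of the 21789 tested transcripts in either direction, and 0 passed an unadjusted p of 0.05, against 1.01% of transcripts. The methods' t-test also gave 0 at either threshold. The smallest unadjusted p in limma, that of Nmnat2, was 0.514, and the adjusted p was 1 for all 10 genes. The study counted a log2 difference beyond 0.5 with an unadjusted p under 0.05. With limma's p in that rule 0 of the 10 were called, against 0.147% of transcripts higher and 0.193% lower.

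The size of change that these arrays leave room for is given by limma's 95% intervals of the log2 difference. These lay within 0.5 in either direction for 8 of the 10 genes, the exceptions being Sirt7 (upper bound 0.56) and Nmnat2 (upper bound 0.66). On the linear scale the bounds of all 10 genes ran from a level of 0.717 to a level of 1.58 times that of Control. The median absolute difference was 0.033 over the 10 genes and 0.074 over all tested transcripts. Their intervals were not narrower than usual, since the median SE was 0.153 for the 10 genes and 0.151 for all transcripts. With the whole hippocampus as the sample, fewer cells of a type and less RNA per cell cannot be told apart.

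**Figure D1:**
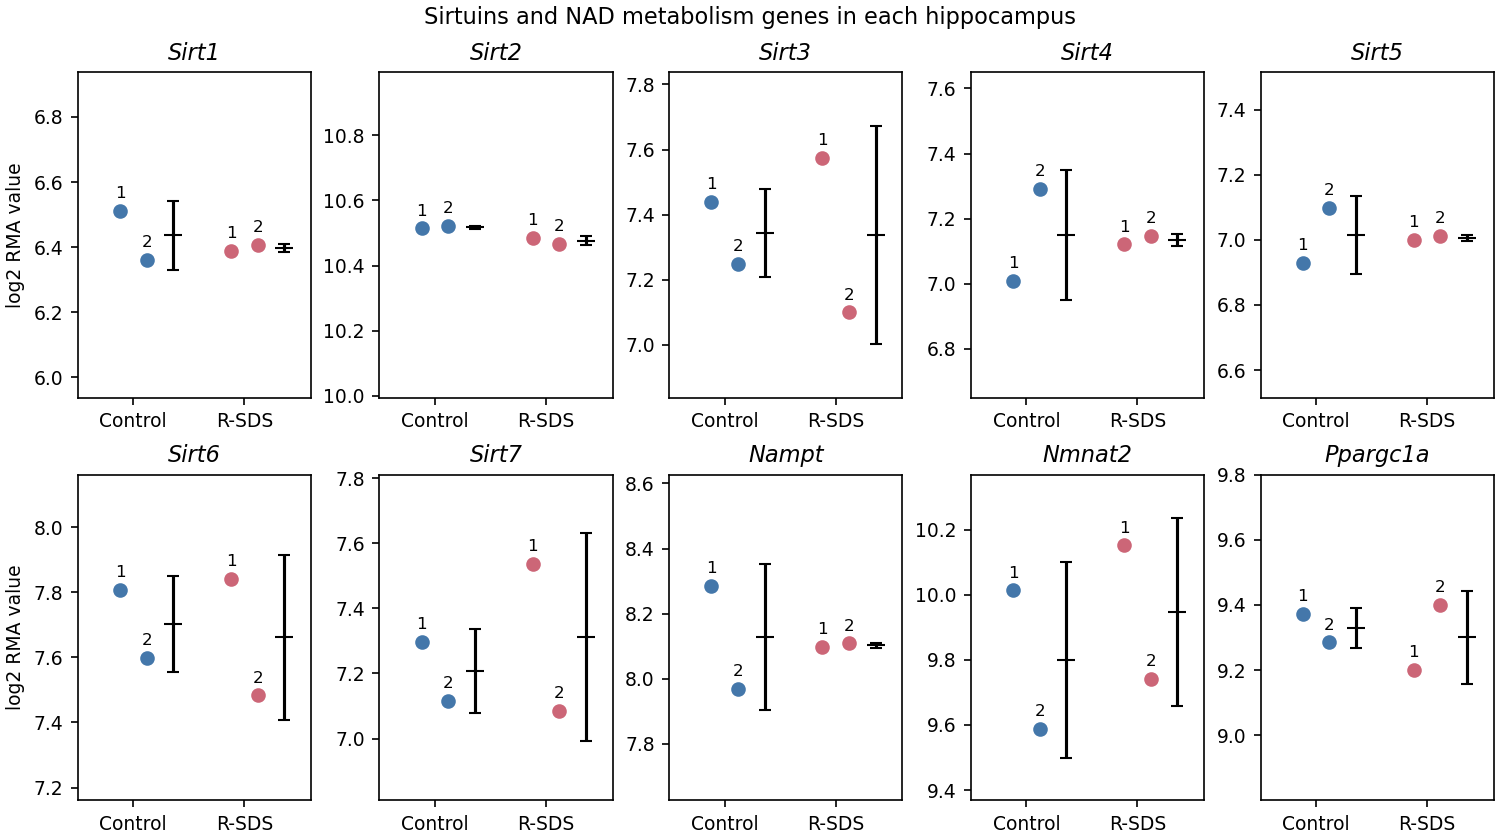
Log2 RMA value of each array (vertical axis, of equal span in every panel) for the 10 genes by group (horizontal axes, Control and R-SDS). Each point is 1 array with its replicate number above it, and the bar to the right is the group mean with its SD (n = 2). The groups overlap for 9 of the 10 genes, and in Sirt2 the R-SDS points lie below the controls by a small step. Of all transcripts 18.5% are without overlap in either direction.

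Pearson correlations between arrays were 0.988 to 0.996 across transcripts, and transcripts are no independent replicates. Arrays with the same replicate number had values of similar spread, since the interquartile range over all 35556 rows was 3.34 and 3.37 in the arrays numbered 1 and 3.06 and 3.11 in those numbered 2. Whether a number marks a batch is not said, so differences within each number stand beside the group differences here. R-SDS 1 also carried a high level of choroid plexus transcripts. The median of 13 such markers stood 2.34 above the control mean there and -0.19 from it in R-SDS 2. The log2 of their summed level was 11.73 and 9.45 for the controls and 13.79 and 9.94 for the R-SDS arrays, and their part in the values of single genes was not tested. Markers of hippocampal neurons were present in all arrays. The synaptic gene Snap25 measured 12.7 to 12.8 and the dentate gyrus gene Prox1 8.30 to 8.49, above the array medians of 6.53 to 6.58.

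Sirt1 encodes the nuclear deacetylase of histones and of factors such as PGC-1alpha and FoxO proteins. It gave 6.51 and 6.36 in the controls numbered 1 and 2, and 6.39 and 6.41 in the R-SDS mice numbered 1 and 2. Control 1 was the highest of the 4 arrays, and both R-SDS mice lay between the controls. The log2 difference was -0.039 (SE 0.13, 95% interval -0.36 to 0.29), or a level 0.974 times that of Control with bounds of 0.777 and 1.22 (limma, adjusted p = 1). Within replicate number 1 it was -0.12, and within number 2 it was 0.045. The sign rested on Control 1, without which the difference was 0.036. The interval gives the differences that these arrays leave room for and is not a limit of detection. With 2 arrays per group, changes of Sirt1 transcript in either direction may have been missed.

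The genes whose profiles over the 4 arrays came closest to that of Sirt1, by the root mean square distance after each gene's mean was subtracted, were Dand5 (0.0017), Krr1 (0.0033) and Pcdh10 (0.0046). Such closeness was common, as 1529 of the other 19937 genes lay within 0.05 of Sirt1.

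The regions just before the RefSeq transcription starts of 4 members are shown here because the group is tied by textbook knowledge to regulators measured on the same arrays: clock factors that bind the E-box, CREB that binds the CRE, and the mitochondrial gene regulators NRF1, ERR and GABP. All 10 genes had an entry among the RefSeq promoters of GRCm38.p6, with 12 windows in all, of which the 250 bases before the start were searched on both strands. The motifs were the E-box CACGTG (found in 6.02% of all 32851 windows), the full CRE TGACGTCA (1.55%), its core TGACG (17.8%), the NRF1 motif (0.782%), the ERR element TCAAGGTCA (0.387%) and the ETS motif CCGGAAGT bound by GABP (2.88%). Capitals mark the matches in the gene's direction of reading, and matches on the other strand appear as their reverse complement.
Sirt1 (chr10:63339036-63339285, minus strand): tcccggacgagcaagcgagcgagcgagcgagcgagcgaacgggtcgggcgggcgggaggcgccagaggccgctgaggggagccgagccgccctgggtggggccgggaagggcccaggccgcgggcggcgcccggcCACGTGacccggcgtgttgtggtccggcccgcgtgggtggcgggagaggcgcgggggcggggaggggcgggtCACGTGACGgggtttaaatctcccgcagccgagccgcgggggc
Sirt6 (chr10:81627567-81627816, minus strand): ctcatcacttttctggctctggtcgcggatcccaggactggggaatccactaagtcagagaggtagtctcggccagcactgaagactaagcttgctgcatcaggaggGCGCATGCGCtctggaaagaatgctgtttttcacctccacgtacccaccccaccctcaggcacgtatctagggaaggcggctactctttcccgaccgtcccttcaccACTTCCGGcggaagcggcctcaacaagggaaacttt
Nampt (chr12:32820085-32820334, plus strand): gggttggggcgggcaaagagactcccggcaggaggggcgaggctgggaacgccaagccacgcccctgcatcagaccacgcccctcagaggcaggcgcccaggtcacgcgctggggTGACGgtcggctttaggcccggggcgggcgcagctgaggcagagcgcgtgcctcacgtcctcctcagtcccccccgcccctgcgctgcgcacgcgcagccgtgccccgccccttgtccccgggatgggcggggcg
Ppargc1a (chr5:51567726-51567975, minus strand): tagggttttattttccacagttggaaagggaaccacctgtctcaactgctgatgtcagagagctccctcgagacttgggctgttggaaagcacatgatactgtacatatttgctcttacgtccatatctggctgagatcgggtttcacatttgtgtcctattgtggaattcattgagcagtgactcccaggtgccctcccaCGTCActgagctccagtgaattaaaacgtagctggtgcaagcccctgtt
The Sirt1 window held 2 E-boxes, at -115 and -43 from the start, the latter sharing bases with a CRE core at -39. Sirt1 was the 1 member gene with an E-box here. The Sirt6 window held the NRF1 motif at -143 and an ETS motif at -36. Another window of Sirt6 held no match. Nampt and Ppargc1a each held a single CRE core, at -135 and -49. The core was not special to the windows shown, as 6 of the 10 genes held it. The ETS motif was found in 2 of the 10 genes. These counts are per gene, whereas the shares above are per window. A match describes the letters and is not evidence of binding. No member held the full CRE or the ERR element in these windows.

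The chromatin sirtuins Sirt6 and Sirt7 varied more between mice of a group than between the groups. Sirt6, whose product acts on histones at telomeres and sites of DNA repair, measured 7.81 and 7.60 in Control 1 and 2 and 7.84 and 7.48 in R-SDS 1 and 2. The arrays numbered 1 were the high ones in both groups, and the log2 difference between groups was -0.042 (SE 0.17, 95% interval -0.47 to 0.38). Sirt7, whose product works in the nucleolus on ribosomal RNA transcription, measured 7.30 and 7.12 in the controls and 7.54 and 7.09 in the R-SDS mice. Its highest array was R-SDS 1, and its lowest was R-SDS 2. The difference of 0.10 (SE 0.19, 95% interval -0.36 to 0.56) came from number 1, where it was 0.24, while within number 2 it was -0.032. Without R-SDS 1 it turned to -0.12, and that of Sirt6 turned to 0.062 without Control 1 and to 0.14 without R-SDS 2.

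The sirtuins of mitochondria gave group differences near 0 with opposite signs within the replicate numbers. Sirt3, the main deacetylase of mitochondrial proteins, measured 7.44 and 7.25 in the controls and 7.58 and 7.10 in the R-SDS mice, so that the R-SDS mice bracketed the controls. Its group difference was -0.0066 (SE 0.19, 95% interval -0.48 to 0.47), with 0.14 within number 1 and -0.15 within number 2. Sirt4, which restrains glutamate dehydrogenase, measured 7.01 and 7.29 in the controls and 7.12 and 7.15 in the R-SDS mice. Here the controls bracketed the R-SDS mice, and the difference was -0.015 (SE 0.15, 95% interval -0.38 to 0.35). Sirt5, which removes succinyl and malonyl groups, showed the same arrangement with 6.93 and 7.10 against 7.0 and 7.01, and a difference of -0.0091 (SE 0.14, 95% interval -0.34 to 0.32). Within number 1 Sirt4 and Sirt5 were higher in the R-SDS mouse by 0.11 and 0.070, and within number 2 they differed by -0.14 and -0.088. Leaving out Control 2 turned both signs (0.13 and 0.075), as did leaving out Control 1 (0.089) or R-SDS 2 (0.23) for Sirt3.

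Sirt2 had the narrowest range over the 4 arrays of the 10 genes and was the only member whose groups did not overlap. It encodes a cytoplasmic deacetylase of tubulin that is abundant in oligodendrocytes and myelin. Its values were 10.51 and 10.52 for the controls numbered 1 and 2, and 10.49 and 10.47 for the R-SDS mice numbered 1 and 2. Both R-SDS mice were thus the lower ones, with a log2 difference of -0.042 (SE 0.13, 95% interval -0.35 to 0.27) or 0.972 times the control level. Groups without overlap were also found for 9.06% of all transcripts in the lower direction, so that 1 in 10 members is near the background. The SE of limma borrows from the spread of all transcripts, and the SD between mice was only 0.0052 in Control and 0.014 in R-SDS. The methods' t-test, which uses this small spread alone, gave an unadjusted p of 0.0568. The difference stayed between -0.051 and -0.032 without any 1 of the arrays, and its sign could not turn because the groups did not overlap.

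Myelin markers, which bear on Sirt2 as a gene of oligodendrocytes, overlapped between the groups with 1 exception in each direction. Of all transcripts 9.41% were without overlap in the higher and 9.06% in the lower direction. Of 12 oligodendrocyte genes 11 were tested, of which 3 had a higher and 8 a lower R-SDS mean, the median log2 difference being -0.074 with 0 called by limma. Their median was -0.18 within number 1 and 0.017 within number 2, where Sirt2 gave -0.028 and -0.055. The farthest were Aspa (aspartoacylase, -0.37, SE 0.20), Gjb1 (a gap junction protein of myelin, -0.25, SE 0.18) and Ermn (ermin of the myelin sheath, -0.19, SE 0.21). All 3 were lowest in R-SDS 1, and without that array Aspa stood at -0.11 and Ermn at 0.090. The log2 of the summed marker level was 13.49 and 13.25 in the controls and 13.38 and 13.28 in the R-SDS mice, and its part in the values of Sirt2 was not tested.

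**Figure D2:**
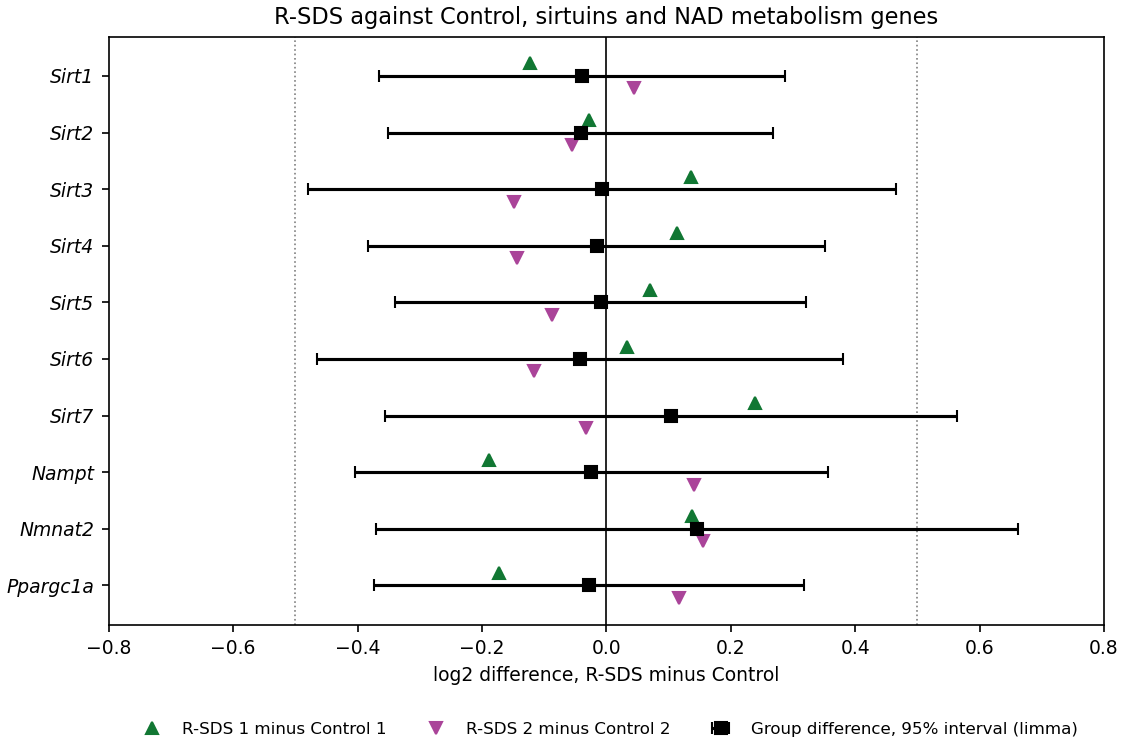
Log2 difference between R-SDS and Control (horizontal axis) for the 10 genes (vertical axis), with squares for the group difference, bars for limma's 95% interval, triangles for the difference within each replicate number and dotted lines at 0.5. All 10 intervals span 0, and for 8 genes the triangles lie on opposite sides of 0. Of all transcripts 50.0% have the same sign within both numbers.

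Nampt, the gene of the rate-limiting salvage enzyme, gave 8.29 and 7.97 in the controls numbered 1 and 2, and 8.10 and 8.11 in the R-SDS mice numbered 1 and 2. The R-SDS mice lay side by side and the controls on either side of them. The log2 difference was -0.024 (SE 0.16, 95% interval -0.40 to 0.36), or 0.983 times the control level. Within number 1 it was -0.19 and within number 2 it was 0.14, and it turned to 0.13 without Control 1.

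Nmnat2 encodes the NAD-making enzyme of axons, whose loss is known to trigger axon degeneration. It gave 10.01 and 9.59 in the controls numbered 1 and 2, and 10.15 and 9.74 in the R-SDS mice numbered 1 and 2. The gap between mice of a group was larger than the gap between groups. Control 1 exceeded Control 2 by 0.43, and R-SDS 1 exceeded R-SDS 2 by 0.41. The group difference of 0.15 (SE 0.21, 95% interval -0.37 to 0.66), or 1.11-fold, was the farthest from 0 of the 10 genes (limma, adjusted p = 1). Nmnat2 and Sirt2 were the 2 members with the same sign within both numbers, and for Nmnat2 the values were 0.14 and 0.15. The same sign was found for 50.0% of all transcripts. Without R-SDS 1 the difference of Nmnat2 was -0.058 and without Control 2 it was -0.067.

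The closest profiles to that of Nmnat2 were those of Bcl6 (distance 0.0096), Rilpl1 (0.010) and Calcoco1 (0.010), with group differences of 0.16, 0.15 and 0.16. Being picked for closeness over the same arrays, they were bound to have group differences near that of Nmnat2. Here 266 of the other 19937 genes lay within 0.05.

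Ppargc1a had 2 rows on the array, and they moved alike. The brighter row gave 9.37 and 9.28 in the controls numbered 1 and 2, and 9.20 and 9.40 in the R-SDS mice numbered 1 and 2. Its lowest and its highest array were both R-SDS mice, and the log2 difference was -0.028 (SE 0.14, 95% interval -0.37 to 0.32). The dimmer row measured 7.94 and 7.79 in the controls and 7.62 and 7.89 in the R-SDS mice, with a difference of -0.11 (SE 0.16, 95% interval -0.49 to 0.27). Both rows were lower within number 1 (-0.17 and -0.32) and higher within number 2 (0.12 and 0.10). The sign of the brighter row turned without R-SDS 1 (0.073) and without Control 1 (0.016).

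In the brain, PGC-1alpha is prominent in parvalbumin interneurons. All 10 markers fixed for these cells were tested, of which 1 had a higher and 9 a lower R-SDS mean, the median being -0.033 and 0 called by limma. Pvalb itself measured 8.25 and 7.86 in the controls and 8.10 and 7.97 in the R-SDS mice, a difference of -0.020 (SE 0.17). The farthest marker was Tac1, the substance P precursor, with 6.20 and 6.31 against 6.02 and 5.94 and a difference of -0.28 (SE 0.13, 95% interval -0.60 to 0.047). Syt2, a presynaptic calcium sensor, stood at -0.12 (SE 0.20) and Kcnc1, a channel for fast spiking, at -0.080 (SE 0.15). The log2 of the summed level was 12.53 and 12.32 in the controls and 12.52 and 12.30 in the R-SDS mice. It was higher in the number 1 array of each group. Ppargc1a was higher in number 1 of the controls (9.372 against 9.285) and in number 2 of the R-SDS mice (9.401 against 9.200). The part of these cells in the values of Ppargc1a was not tested.

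Across the 10 genes, the direction seen within number 1 was mostly not the direction within number 2. The signs were opposite for 8 of 10 genes, where 50.0% of all transcripts had the same sign within both numbers. So small a count is not read as a trait of these genes. Of the 7 sirtuins, 5 were higher in the R-SDS mouse of number 1, with a median of 0.070, and 6 were lower in that of number 2, with a median of -0.088. The reverse held for Nampt, Ppargc1a and Sirt1, which were lower in the R-SDS mouse of number 1 and higher in that of number 2. Over all tested transcripts the medians within the numbers were 0.0064 and 0.0089. Each of these directions rests on a single pair of mice and was not tested.

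**Figure D3:**
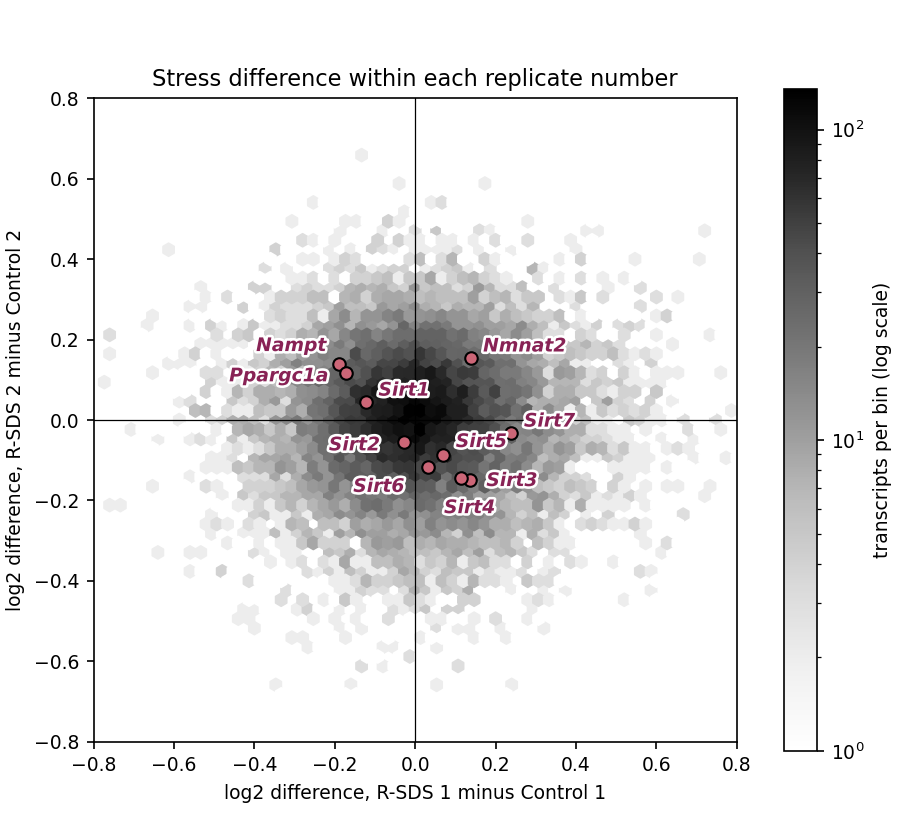
Log2 difference between the R-SDS and the Control mouse of number 1 (horizontal axis) and of number 2 (vertical axis), for the 10 genes (red points) over the tested transcripts (hexagons shaded by their count on a log scale; 195 transcripts lie outside the axes). Nmnat2 is the 1 member in the upper right quadrant and Sirt2 the 1 member in the lower left, and the other 8 lie in the quadrants of opposite sign.

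The replicate number separated more of the 10 genes than the stress did. For 6 of them the arrays numbered 1 and those numbered 2 did not overlap, which held for 60.7% of all transcripts, and for 1 of them the groups did not overlap, which held for 18.5%. Sirt3, Sirt6, Sirt7 and Nmnat2 were higher in both number 1 arrays (31.6% of transcripts), and Sirt4 and Sirt5 were higher in both number 2 arrays (29.2%). R-SDS 1 exceeded R-SDS 2 by 0.47 in Sirt3, 0.45 in Sirt7 and 0.36 in Sirt6, and Control 1 exceeded Control 2 by 0.19, 0.18 and 0.21. In 9 of 10 genes the group difference was smaller than the larger gap between mice of the same group, as in 88.9% of all transcripts. The 10 genes were thus near the background in each of these counts.

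**Figure D4:**
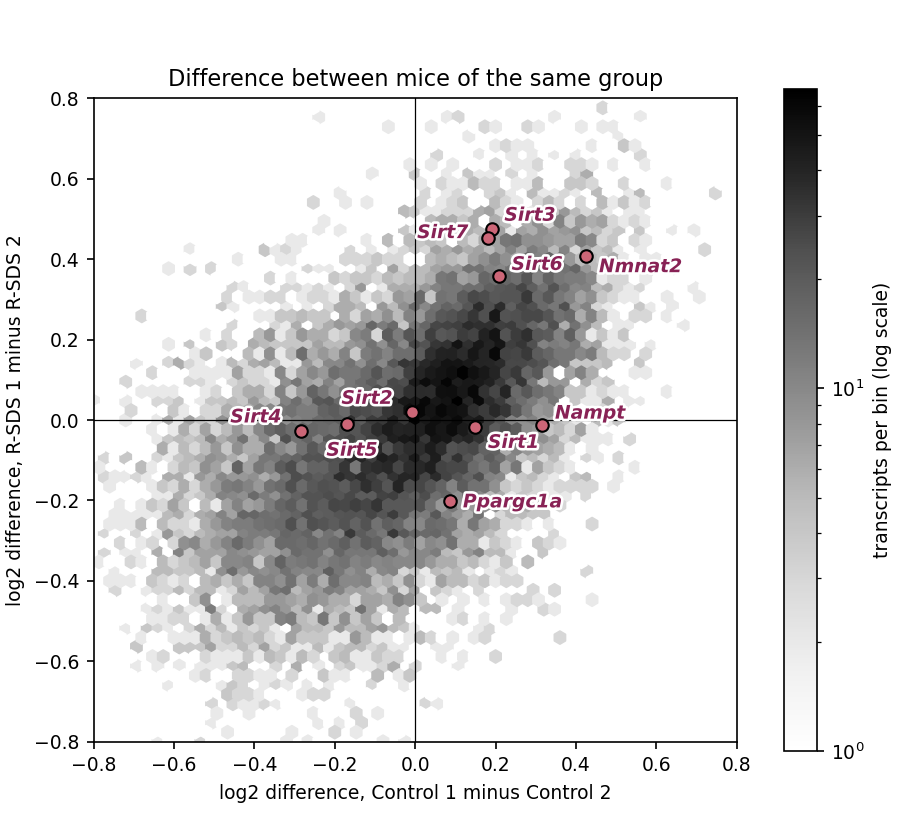
Log2 difference between Control 1 and Control 2 (horizontal axis) and between R-SDS 1 and R-SDS 2 (vertical axis) for the 10 genes (red points) over the tested transcripts (hexagons shaded by their count on a log scale; 481 transcripts lie outside the axes). Sirt3, Sirt6, Sirt7 and Nmnat2 lie in the upper right, higher in both arrays numbered 1, and the tested transcripts spread along the same diagonal.

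The other genes of NAD+ salvage and of vitamin B3 use gave no call either. Of 14 genes, all tested, 9 had a higher and 5 a lower R-SDS mean, the median log2 difference being 0.034 against 0.0072 over all transcripts, and 0 passed limma at the adjusted or the unadjusted p of 0.05. The farthest were Naprt, which starts the route from nicotinic acid (-0.12, SE 0.15), the purine nucleoside phosphorylase gene Pnp (0.11, SE 0.14) and Nmnat3, the NMNAT gene of mitochondria (0.10, SE 0.13). Nmnat3 was the 1 gene of this list whose groups did not overlap, at 6.17 and 6.14 against 6.22 and 6.30, where 9.41% of transcripts were so in the higher direction. The nuclear form Nmnat1 measured 7.84 and 7.68 in the controls and 7.83 and 7.66 in the R-SDS mice, so that each R-SDS mouse lay within 0.02 of the control with its number.

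The kynurenine route, which builds NAD+ from tryptophan, held the pathway gene with the smallest p. Tdo2, the tryptophan dioxygenase that opens this route, gave 4.98 and 4.74 in the controls numbered 1 and 2, and 5.23 and 5.27 in the R-SDS mice numbered 1 and 2. Both R-SDS mice were higher than both controls, as in 9.41% of all transcripts, and the difference was 0.39 (SE 0.14, 95% interval 0.039 to 0.74). Its unadjusted p in limma was 0.0348, where 1.01% of all transcripts were under 0.05. Its adjusted p over all transcripts was 1. Tdo2 was higher within both numbers, by 0.25 and 0.53, and the difference stayed between 0.27 and 0.51 without any 1 array. The sign of these values follows from the lack of overlap and adds nothing to it. The level of Tdo2 was near the lower quartile of the arrays (4.88 to 5.08), and the values carry no detection call. Among genes of the dentate gyrus, C1ql2 gave 8.02 and 7.76 in the controls and 8.47 and 8.09 in the R-SDS mice. Its groups did not overlap, again beside 9.41% of all transcripts, and its difference was 0.39 (SE 0.18). Dsp (desmoplakin) gave 6.92 and 6.57 against 7.39 and 6.89, with overlap and a difference of 0.39 (SE 0.22). Prox1 overlapped as well, with a difference of 0.033 (SE 0.14) that was -0.11 within number 1 and 0.18 within number 2. None of these 3 genes passed an unadjusted p of 0.05 in limma, and their part in the value of Tdo2 was not tested.

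Of the 9 genes of the kynurenine route, 7 had a higher and 2 a lower mean, with a median of 0.037 and 0 called at the adjusted p. After Tdo2 came Kynu (kynureninase, 0.25, SE 0.33), at 3.30 and 4.34 in the controls and 4.19 and 3.96 in the R-SDS mice, and Acmsd (0.19, SE 0.21), whose enzyme diverts the route away from NAD+. Kynu was 0.88 higher within number 1 and differed by -0.37 within number 2. Both genes lay below the lower quartile of the arrays.

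Enzymes that compete with sirtuins for NAD+ also overlapped between the groups. Of 8 such genes 7 were tested, Cd38 not being tested here, with 5 higher, 2 lower, a median of 0.065 and 0 called at either p. Bst1, a paralog of Cd38, stood at 0.13 (SE 0.20), Parp1, the DNA damage sensor, at 0.11 (SE 0.17), and Parp3 at 0.094 (SE 0.18). Sarm1, the NADase of axon degeneration that is held in check by NMNAT2, measured 7.25 and 7.06 in the controls and 7.40 and 7.04 in the R-SDS mice. Like Nmnat2 it was high in both number 1 arrays, as were 31.6% of all transcripts, with a group difference of 0.065 (SE 0.17).

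Genes around PGC-1alpha split evenly. Of 14 family members and partners, all tested, 7 were higher and 7 lower, with a median of 0.0059 and 0 called at either p. Mef2d, a muscle and neuron factor that binds the Ppargc1a gene, stood at 0.16 (SE 0.23) in its brighter row and at -0.11 (SE 0.13) in its dimmer one, the fatty acid receptor gene Ppara at 0.15 (SE 0.13) and the sister gene Ppargc1b at 0.079 (SE 0.14). Ppara was the 1 gene here without overlap, with 5.87 and 5.74 against 5.98 and 5.93. Of all transcripts 9.41% were so in the higher direction. The mitochondrial DNA factor Tfam measured 6.80 and 6.41 in the controls and 6.68 and 6.45 in the R-SDS mice (-0.040, SE 0.18). Both number 1 arrays were high, as for 31.6% of all transcripts. Oxidative defence genes that PGC-1alpha and FoxO factors raise (10 of 12 tested) had 8 higher and 2 lower means, a median of 0.033 and 0 calls. Catalase (Cat) led them at 0.27 (SE 0.20), with 10.42 in R-SDS 1 against 9.80 to 10.01 in the other arrays, and at 0.019 without R-SDS 1. It was followed by Gpx1 (0.14, SE 0.20) and Txn2 (0.058, SE 0.13). Foxo1 was the 1 gene of these without overlap, with a difference of 0.046, again beside 9.41% of all transcripts.

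Clock genes, whose products drive Nampt in a daily rhythm, gave no call. Of 11 genes 10 were tested, of which 7 were higher and 3 lower in R-SDS mice, with a median of 0.096 and 0 called at either p. Their median was 0.15 within number 1, where Nampt differed by -0.19, and 0.026 within number 2, where Nampt differed by 0.14. Per1 led them at 0.38 (SE 0.24), followed by Dbp (0.27, SE 0.20) and Cry2 (0.18, SE 0.21). R-SDS 1 was the high array for all 3, and without it they stood at 0.052, 0.0052 and -0.063. The groups did not overlap for Dbp and Per3, higher in R-SDS, where 9.41% of all transcripts were so in that direction. For Dbp the margin was the step from 9.213 in Control 2 to 9.217 in R-SDS 2. The activators Clock (-0.10, SE 0.17) and Arntl (-0.14, SE 0.15) stood on the other side of 0. Within number 1 they differed by -0.228 and -0.227, in the same direction as Nampt. Within number 2 Clock differed by 0.025 and Arntl by -0.052. The list median pools these activators with the other clock genes, and the part of clock genes in the values of Nampt was not tested.

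Marker lists of vessels and immune cells, which also express Nampt, gave 0 calls by limma. Brain endothelium (9 of 10 genes tested) had 6 higher and 3 lower means and a median difference of 0.13. Flt1 stood at 0.40 (SE 0.18), Emcn at 0.37 (SE 0.16) and Pecam1 at 0.17 (SE 0.23). For 3 of the 9 genes (Flt1, Emcn and Slco1a4) the groups did not overlap, all higher in R-SDS, against 9.41% of all transcripts. The part of vessel and immune cells in the values of Nampt was not tested. Microglia and leukocyte markers (10 tested) had a median of 0.11. The neutrophil genes S100a8 (0.57, SE 0.30) and S100a9 (0.28, SE 0.20) stood highest in R-SDS 1, at 4.89 and 5.94, where Nampt was below Control 1. The neutrophil surface gene Ly6g was near the bottom of the scale in all arrays, at 3.52 to 3.87. Of the choroid plexus markers 1 passed the thresholds of the study, the water channel gene Aqp1, with a difference of 1.24 that was 0.47 without R-SDS 1.

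**Figure D5:**
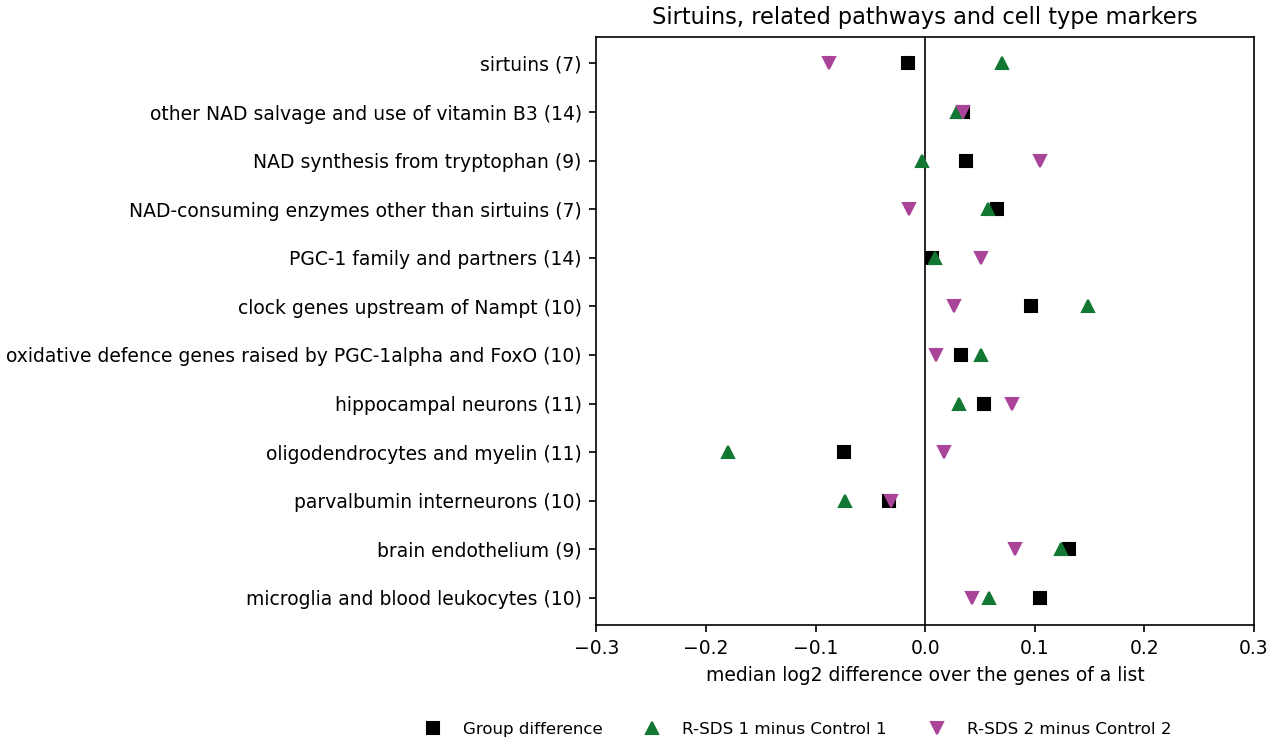
Median log2 difference (horizontal axis) over the genes of each list (vertical axis, number tested in brackets), as the group difference (squares) and within each replicate number (triangles), with the choroid plexus list left out for its scale. The sirtuin median is 0.070 within number 1 and -0.088 within number 2, and the myelin median is -0.18 and 0.017.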

How the data were processed

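The authors hybridised RNA of dissected hippocampi to Affymetrix Mouse Gene ST arrays and deposited log2 values, for which the labels name RMA and Affymetrix Expression Console. RMA subtracts background, aligns the arrays and summarises probes, and the deposited columns did not share a distribution. The sources name different labelling kits. The genome build behind the probe sets was not given in these sources. No detection calls came with the values, and precision is limited by the small number of arrays.

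Groups came from the sample titles. The platform annotation named 1 gene symbol for 21789 of 35556 rows, which were tested, while 1621 had several and 12146 were unnamed. Symbols were checked through Entrez identifiers (99.6% matched, 0 changed). The groups were compared by limma 3.58.1 in R 4.3.3 (lmFit and eBayes, all 4 arrays, no block, 2 residual and 4.07 prior degrees of freedom), two-sided, with Benjamini-Hochberg adjustment over all tested transcripts. Intervals are limma's at 95%. Per gene the row with the highest mean was used. Genes named are the 10 members, the genes past the thresholds of the study or else the 3 with the largest absolute difference of each list, and the nearest profiles of Sirt1 and Nmnat2. Others were named after their values were seen. The members and lists were chosen with earlier results of these data known. The fit was tested on simulated data. Alternatives were the replicate number as a block, the methods' t-test (Student's, as in the study's methods), quantile normalisation, equal array medians, a filter on dim transcripts (means under 4.99), an intensity trend, the mean over rows of a gene, and leaving out each array. Promoter sequences are RefSeq's. Plots were drawn with matplotlib 3.10.9.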

Additional observations from a re-analysis of the deposited data

How the results depend on the processing

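With 2 arrays per group the median distance from the estimate to the bound of limma's 95% interval was 0.369 over all transcripts. None of the 10 genes passed the adjusted or the unadjusted p of 0.05 under any alternative that was run, and none changed sign except when an array was left out. The sign could not turn for Sirt2, whose groups did not overlap. For 9 of the 10 genes, all but Sirt2, it turned without at least 1 of the 4 arrays. Their differences then ranged over -0.1136 to 0.0362 for Sirt1, -0.2441 to 0.2308 for Sirt3, -0.1571 to 0.1266 for Sirt4, -0.0935 to 0.0754 for Sirt5, -0.2211 to 0.1368 for Sirt6, -0.1225 to 0.3299 for Sirt7, -0.1823 to 0.1343 for Nampt, -0.0666 to 0.3593 for Nmnat2 and -0.1288 to 0.0731 for Ppargc1a. The median of the 10 genes was -0.0196, and it ranged from -0.0691 to 0.0492 with an array left out, the latter without Control 1.

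With the replicate number as a block, the 10 differences and their median (-0.0196) were the same by construction, and 0 passed. The SE fell to between 0.0863 and 0.116, with a smallest unadjusted p in limma of 0.158 for Nmnat2 (interval -0.0835 to 0.3762). For Sirt7 the interval with the block was -0.1826 to 0.39. Same-numbered arrays deviated together (correlation 0.517 across transcripts), but the labels do not say what a number marks, and with 2 pairs this is only a hint.

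Over all transcripts, limma called 0 at the adjusted p, and 0 to 49 with an array left out, the highest without R-SDS 2. At an unadjusted p of 0.05 limma counted 221, the block 1047 and the methods' t-test 440. Past the thresholds of the study were 32 higher and 42 lower, against 54 higher with the block, 6 and 13 with the methods' t-test, 21 and 6 without dim transcripts, and 74 to 416 higher and 67 to 323 lower with an array left out. The cause was not tested.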
